A study of Mus musculus with 6 samples.

Results

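Splicing removes introns from newly made transcripts, and the genes described here mostly encode proteins of that machinery or its regulators. They were the protein-coding genes whose Ensembl release 96 symbol begins with Srsf and a digit, Hnrnp, Snrp, Sf3a, Sf3b, Lsm and a digit, U2af or Prpf. This rule found 81 of the 22028 protein-coding genes among the 55536 genes counted, and 5 processed pseudogenes with such symbols were left out. By symbol the 81 fell into 7 classes, with 11 SR genes, 20 hnRNP genes, 12 genes of Sm and snRNP proteins, 9 SF3 genes, 3 U2AF genes, 13 LSm genes and 13 PRPF genes. The rule used no measured value. It also took in some LSm genes that act outside splicing, described below, and all 81 are called splicing genes here.

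Gene expression was measured by sequencing mRNA libraries of CAD cells, a mouse line of the central nervous system with catecholaminergic features that carries simian virus 40 as its transforming agent. The labels give its strain as C57BL/6 x DBA/2 and its sex as male. Undifferentiated, proliferating cells in medium with 8% serum (3 libraries) were compared with cells differentiated for 5 days in 100 µM dexamethasone, a synthetic glucocorticoid, in medium with 1% serum (3 libraries). Steroid and serum changed together, so their parts cannot be told apart, and all libraries come from 1 line. The samples are described as independent, but the labels do not say that they were separate cultures, so each p reflects variation among these libraries, which could be technical alone. Libraries held between 6411105 and 8757992 counted reads.

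The spliceosome is built from small nuclear RNAs bound by proteins. The U1 particle recognises the start of an intron, U2AF and the U2 particle with its SF3a and SF3b subcomplexes recognise its end and branch point, and the U4/U6 and U5 particles then join and are rearranged into the catalytic form, a step in which many PRPF proteins take part. A ring of Sm proteins encircles the U1, U2, U4 and U5 RNAs, and a related ring of LSm proteins holds U6. SR and hnRNP proteins bind the transcript itself and often act against each other on the choice of splice sites. In neurons and their precursors, the make-up of these regulators is known to change as cells stop dividing.

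The genes as a whole were lower in the dexamethasone cells. They took 2.17%, 2.23% and 2.21% of all counted reads in the 3 undifferentiated libraries and 1.07%, 1.04% and 1.06% in the 3 dexamethasone libraries. The means were 2.203% ± 0.029 and 1.05% ± 0.015 (SD, n = 3 each), a 2.09-fold lower share, with no overlap between groups. In bulk libraries, fewer cells of a kind and less RNA per cell cannot be told apart. By class, the share of reads was 2.47-fold lower for SR genes, 2.45-fold lower for Sm and snRNP genes, 2.199-fold lower for hnRNP genes, 2.14-fold lower for U2AF genes, 1.94-fold lower for LSm genes, 1.70-fold lower for SF3 genes and 1.54-fold lower for PRPF genes.

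Of the 81 genes, 79 had enough reads to be tested. With edgeR's quasi-likelihood test and a Benjamini-Hochberg adjusted p under 0.05 over all 12664 tested genes, 73 were lower (92.4%), 3 were higher and 3 were not called. Among all tested genes 38.6% were called lower and 40.3% were called higher. Well-counted genes were called lower more often: among tested genes with a mean of at least 50 CPM (counts set relative to library size with TMM factors), 51.6% were lower, against 63 of the 64 splicing genes at that level. The median log2 fold change, dexamethasone minus undifferentiated, was -1.18 for the 79 genes, which is 2.27-fold lower, and 0.02 for all tested genes. In 48 of the 79 the fall was more than 2-fold. In 73 of them all 3 dexamethasone libraries were below all 3 undifferentiated ones (38.9% of all tested genes), and in 3 they were all above (41.0% of all tested genes).

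**Figure D1:**
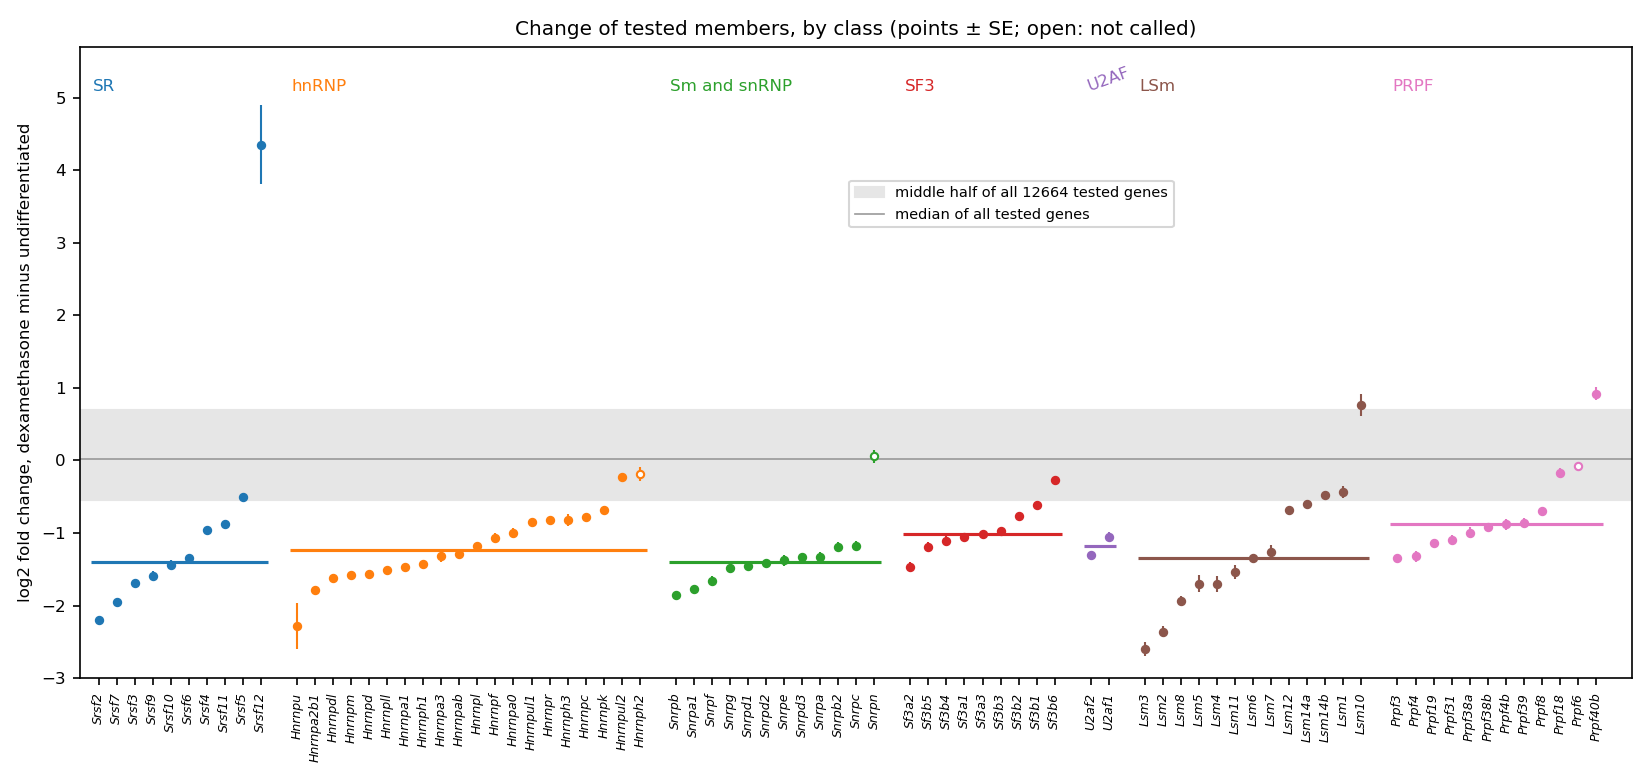
Log2 fold change (vertical axis, dexamethasone minus undifferentiated) of the tested splicing genes drawn, ordered within its class, as points with SE bars; coloured lines are class medians and the grey band runs from -0.55 to 0.69, the 25th to 75th percentile of all 12664 tested genes. Most genes of every class lie below the band, and Srsf12, Lsm10 and Prpf40b are the 3 genes called higher.

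The changes were shifted downward across nearly their whole range. The 25th percentile of all tested genes was a log2 fold change of -0.55, and 67 of the 79 splicing genes were at or below it. The 10th percentile was -1.13, and 41 of the 79 were at or below that. The exceptions were few, and each is described with its class: Srsf12, Lsm10 and Prpf40b were higher, and Snrpn, Hnrnph2 and Prpf6 were not called. Srsf1 and U2af1l4 had too few reads to be tested.

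**Figure D2:**
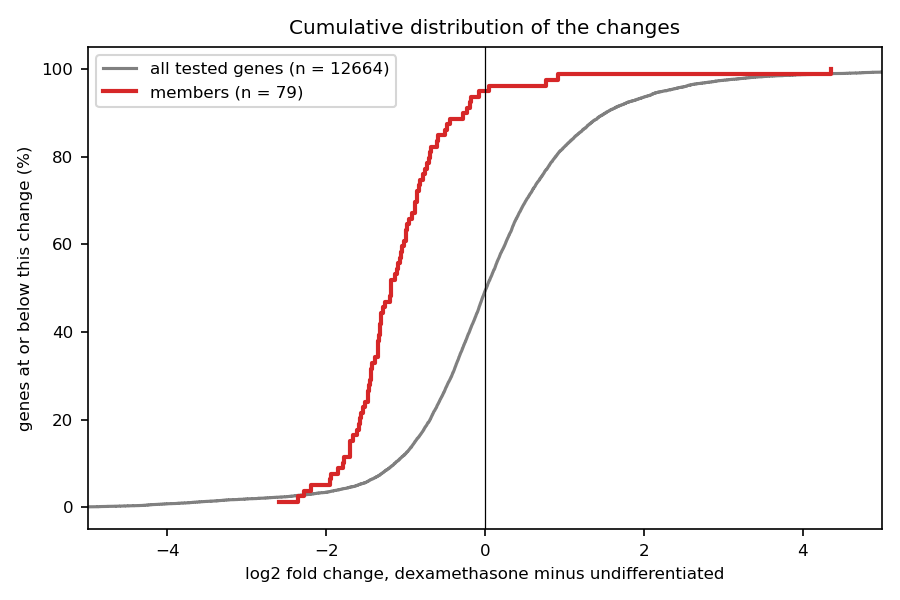
Share of genes (vertical axis, percent) with a log2 fold change at or below the value on the horizontal axis, for the 79 tested splicing genes (red) and all 12664 tested genes (grey). The red curve reaches its middle near -1.18 and the grey curve near 0.02.

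Promoter windows were read for these genes because so many moved together. RefSeq windows of 250 bases before to 50 after a transcription start (build GRCm38.p6) matched 69 of the 81 genes by symbol, with 92 windows in all. They were searched on both strands for the letters of 4 kinds of binding motif, none of which is contained in another. The ETS motif CCGGAAG was in 31.25% of the 80 windows of the lower genes (20 of 61 genes) and in 17.9% of the 12034 windows of all tested genes. It was in 23.4% of the windows of all genes called lower and in 12.6% of those of genes called higher. Counted by gene, it was in 1972 of 9365 tested genes, 967 of 3661 called lower and 594 of 3850 called higher. Genes with several windows weigh more in the window shares. The E-box CACGTG was in 11.25% of the lower genes' windows and 9.92% of all windows, and the YY1 motif AAGATGGCG in 5.0% and 3.11%. Of 2 forms of the E2F motif, TTTCCCGC was in 6.25% (4 of 61 genes) and 2.06% (235 of 9365 genes). It was in 3.17% of the windows of all genes called lower (133 of 3661 genes). The other form, TTTGGCGC, was in 0 of the 80 windows and 0.939% of all windows. For the 6 genes that were higher or not called, the ETS motif was in 1 of 10 windows, which is 1 of 6 genes. Some of these genes have several windows, and so few genes do not allow a comparison. These are matches of letters and do not show binding. The 200 bases before the start are printed for 2 genes that fell, Hnrnpd and Snrpb2, and for Prpf40b, which rose. Bases are on the gene's strand, with matches on either strand in capitals. Hnrnpd and Snrpb2 were picked because their windows hold an ETS match, so they do not represent the lower genes. Windows of Lsm3, Lsm2 and Srsf2, which fell further, held none. RefSeq starts of the 3 printed genes differ from their Ensembl starts by 154 bases or less. Hnrnpd has an ETS and an E-box match (chr5:99978939-99979138, minus strand), Snrpb2 has 2 ETS matches side by side (chr2:143062869-143063068, plus strand), and Prpf40b has an E-box match and no ETS match (chr15:99295041-99295240, plus strand).
Hnrnpd: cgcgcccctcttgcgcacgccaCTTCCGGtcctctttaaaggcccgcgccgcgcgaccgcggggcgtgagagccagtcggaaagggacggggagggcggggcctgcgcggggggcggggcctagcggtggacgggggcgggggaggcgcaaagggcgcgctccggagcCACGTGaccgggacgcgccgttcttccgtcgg
Snrpb2: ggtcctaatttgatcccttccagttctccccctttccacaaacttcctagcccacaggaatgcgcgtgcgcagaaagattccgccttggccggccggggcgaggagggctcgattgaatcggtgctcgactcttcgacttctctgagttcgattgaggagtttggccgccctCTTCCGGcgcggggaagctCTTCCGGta
Prpf40b: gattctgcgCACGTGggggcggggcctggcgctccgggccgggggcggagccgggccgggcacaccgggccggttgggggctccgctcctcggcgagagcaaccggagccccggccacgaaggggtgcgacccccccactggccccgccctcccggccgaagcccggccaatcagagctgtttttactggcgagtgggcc

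The Sm ring genes fell together and by similar amounts, while Snrpn, a paralog of one of them, did not move. The ring is formed by the products of Snrpb, Snrpd1, Snrpd2, Snrpd3, Snrpe, Snrpf and Snrpg. All 7 were lower, with log2 fold changes between -1.86 (Snrpb) and -1.34 (Snrpd3) and a median of -1.45. Snrpb (chr2:130171414-130179403), which encodes SmB, was at 314, 280 and 284 CPM in undifferentiated cells and at 74.1, 81.0 and 88.3 CPM in dexamethasone cells. The highest dexamethasone value was far below the lowest undifferentiated one, and the log2 fold change was -1.86 ± 0.063 (SE; 3.62-fold lower, edgeR adjusted p = 3.81e-20). Snrpd1, Snrpd2 and Snrpd3, for the 3 SmD proteins, were 2.74-fold, 2.68-fold and 2.53-fold lower, and Snrpf and Snrpg 3.17-fold and 2.79-fold lower. The spread was widest for Snrpe, at 149, 165 and 162 CPM against 73.1, 58.0 and 50.03 CPM, and it did not bring the groups into contact. Snrpf shared 18.8% of its 75-base stretches with transcripts of genes elsewhere, so some of its reads may have gone uncounted.

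Snrpn (chr7:59982495-60140219) encodes SmN, a form of SmB made mainly in brain from an imprinted locus. Its libraries held 31.4, 34.3 and 30.5 CPM in undifferentiated cells and 36.9, 30.8 and 32.3 CPM in dexamethasone cells. The groups overlapped, and the fitted difference was 0.05 ± 0.090 on the log2 scale (SE; edgeR adjusted p = 0.586). Without dexamethasone replicate 1 it was -0.028. Of its exon bases 27.3% lie in exons of Snurf and a second gene on the same strand, and reads there were not counted. Within each library, the log2 ratio of Snrpb to Snrpn in reads per kilobase was 3.45, 3.16 and 3.34 in undifferentiated cells and 1.13, 1.52 and 1.58 in dexamethasone cells. The ratio of SmB to SmN transcripts was thus 3.75-fold lower after differentiation, with no overlap between groups.

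Genes for proteins that belong to U1 or U2 alone were also lower. Snrpa and Snrpc encode the A and C proteins of U1, and Snrpa1 and Snrpb2 encode the A' and B'' proteins of U2. All 4 were lower, with a median log2 fold change of -1.26. Snrpa1 (chr7:66059003-66074587) fell furthest, from 109, 109 and 114 CPM to 33.2, 31.7 and 31.7 CPM. This was a log2 fold change of -1.78 ± 0.067 (SE; 3.43-fold lower, edgeR adjusted p = 4.38e-19). Snrpc fell by the least of the 4, from 128 ± 1.45 to 56.8 ± 4.36 CPM (SD, n = 3 each). Snrpa went from 139, 140 and 136 CPM to 53.1, 55.0 and 57.9 CPM (log2 fold change -1.33 ± 0.060, SE; edgeR adjusted p = 2.54e-17). Snrpb2 went from 149, 152 and 170 CPM to 77.0, 62.0 and 66.9 CPM (log2 fold change -1.19 ± 0.070, SE; edgeR adjusted p = 9.48e-15). Neither gene's groups overlapped. The A protein of U1 and the B'' protein of U2 are close relatives, and the ratio of Snrpa to Snrpb2 overlapped between groups (difference of the mean log2 ratios -0.13).

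Genes of SF3a and SF3b, which anchor U2 at the branch point, were all lower, 9 of 9, with a median log2 fold change of -1.01. The 3 SF3a genes had a median of -1.05 and the 6 SF3b genes a median of -0.87. Sf3a2 (chr10:80798198-80804924) fell furthest, from 169, 165 and 165 CPM to 59.1, 56.9 and 65.2 CPM, and the groups were far apart (log2 fold change -1.47 ± 0.060, SE; edgeR adjusted p = 3.12e-18). Sf3b5, a small subunit of SF3b, fell from 129, 129 and 113 CPM to 49.9, 54.7 and 58.1 CPM (log2 fold change -1.20 ± 0.069, SE; edgeR adjusted p = 5.46e-15). The other SF3a genes, Sf3a1 and Sf3a3, were 2.07-fold and 2.02-fold lower. Among SF3b genes Sf3b4 was 2.16-fold lower, though it shared 38.1% of its stretches with genes elsewhere, Sf3b3 was 1.97-fold lower and Sf3b2 1.69-fold lower. Sf3b1, the large scaffold that holds the branch point and is often mutated in leukaemia, moved less: its level went from 412 ± 4.45 to 270 ± 10.3 CPM (SD, n = 3 each), 1.52-fold lower. The smallest change was that of Sf3b6, whose product p14 contacts the branch point adenosine. It was at 74.5, 81.8 and 75.3 CPM in undifferentiated cells and at 63.9, 63.4 and 64.9 CPM in dexamethasone cells, which did not overlap (log2 fold change -0.27 ± 0.064, SE; edgeR adjusted p = 0.000415). Within 1 complex the changes therefore ran from 1.21-fold to 2.29-fold lower among SF3b genes.

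U2AF binds the polypyrimidine tract and the end of the intron. U2af2 (chr7:5062143-5079938), the large subunit, fell from 281, 298 and 285 CPM to 122, 114 and 114 CPM (log2 fold change -1.30 ± 0.053, SE; edgeR adjusted p = 2.57e-18). U2af1, the small subunit, fell from 126, 127 and 117 CPM to 60.01, 57.3 and 61.4 CPM (log2 fold change -1.05 ± 0.061, SE; edgeR adjusted p = 7.29e-15). Neither gene's groups overlapped. U2af1 shared 18.7% of its stretches with genes elsewhere. U2af1l4, a relative of the small subunit, had 4 reads in the 6 libraries together. Of its exon bases 65.6% are shared on the same strand with a second gene model, so this count says little about its level.

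By median, genes of the LSm2 to LSm8 ring fell further than the other LSm genes. The ranges overlapped, since Lsm11, outside the ring, fell further than Lsm6 and Lsm7. The LSm2 to LSm8 proteins form the ring that holds the tail of U6 RNA in the nucleus, and all 7 of their genes were lower, with a median log2 fold change of -1.70. Lsm3 (chr6:91515928-91522625) had the largest fall of all tested splicing genes. It was at 70.5, 80.9 and 82.3 CPM in undifferentiated cells and at 13.6, 12.9 and 11.8 CPM in dexamethasone cells, with the groups far apart. The log2 fold change was -2.60 ± 0.092 (SE; 6.06-fold lower, edgeR adjusted p = 1.08e-19). Lsm2 (chr17:34981862-34985891) fell from 103, 104 and 104 CPM to 21.3, 19.3 and 20.3 CPM (log2 fold change -2.36 ± 0.073, SE; edgeR adjusted p = 5.6e-21). The ring did not move as evenly as the Sm ring, since Lsm7 fell 2.40-fold and Lsm6 2.54-fold. Lsm4 and Lsm5 were each 3.25-fold lower. Lsm5 and Lsm7 shared 15.5% and 11.9% of their stretches with genes elsewhere.

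Outside that ring the median of 6 LSm genes was -0.54, with 5 lower and 1 higher. Lsm1 takes the place of LSm8 in a cytoplasmic ring that promotes decapping and decay of mRNA. Lsm1 was at 44.8, 41.8 and 47.7 CPM and then at 34.1, 32.6 and 32.2 CPM, a non-overlapping 1.35-fold fall (log2 fold change -0.44 ± 0.081, SE; edgeR adjusted p = 2.19e-05). Lsm8 fell from 85.6, 92.5 and 92.7 CPM to 23.5, 24.4 and 22.5 CPM (log2 fold change -1.94 ± 0.075, SE; edgeR adjusted p = 7.1e-19). The log2 ratio of Lsm1 to Lsm8 in reads per kilobase was below 0 in each undifferentiated library (-0.49, -0.70 and -0.52) and above 0 in each dexamethasone library (0.98, 0.86 and 0.96). The cytoplasmic partner was thus the lesser of the pair per length in undifferentiated cells and the greater after differentiation, a 2.83-fold shift. Lsm14a and Lsm14b, which take part in repression of translation and in processing bodies, were both lower. Lsm14a went from 172, 165 and 176 CPM to 114, 113 and 111 CPM (log2 fold change -0.60 ± 0.053, SE; edgeR adjusted p = 7.56e-11). Lsm14b went from 131, 138 and 140 CPM to 104, 92.2 and 96.8 CPM (log2 fold change -0.48 ± 0.059, SE; edgeR adjusted p = 3.27e-08). Their groups did not overlap, and the ratio of the pair did. Lsm12 was 1.61-fold lower.

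Lsm10 and Lsm11 replace SmD1 and SmD2 in the ring of the U7 particle, which trims the ends of histone transcripts. These partners went in opposite directions. Lsm11 (chr11:45928269-45944935) fell from 50.7, 42.4 and 45.9 CPM to 15.5, 16.5 and 15.6 CPM (log2 fold change -1.54 ± 0.095, SE; edgeR adjusted p = 2.51e-14). Lsm10 (chr4:126096623-126098584) rose from 7.63, 11.6 and 10.2 CPM to 15.7, 19.0 and 15.3 CPM (log2 fold change 0.77 ± 0.148, SE; 1.70-fold, edgeR adjusted p = 3.81e-05). Neither gene's groups overlapped, and Lsm10 was the only LSm gene called higher. Tested against a fold of 1.5 in place of no change, Lsm10 was no longer called (edgeR adjusted p = 0.0893).

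**Figure D3:**
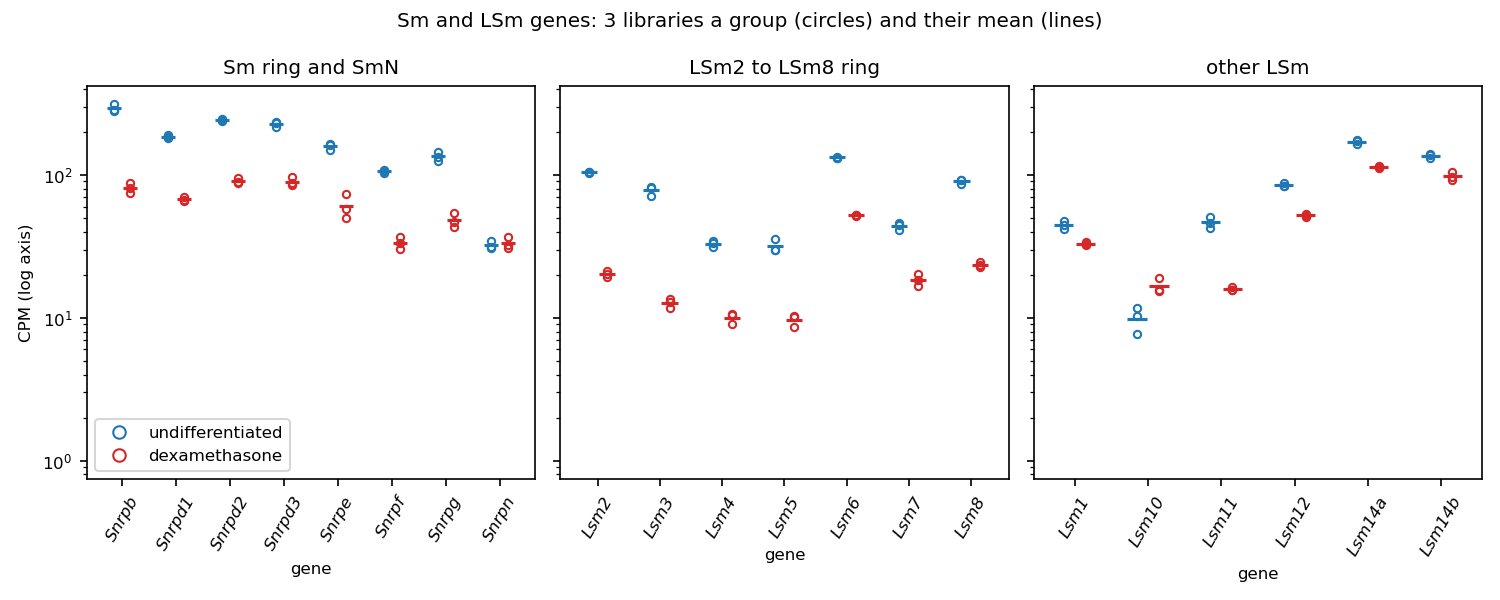
Level of each gene of the Sm ring with Snrpn (left), the LSm2 to LSm8 ring (middle) and the other LSm genes (right) in CPM on a log axis; circles are the 3 libraries of a group and lines their mean. All ring genes are lower in the dexamethasone libraries, Snrpn overlaps, and Lsm10 is higher.

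PRPF genes encode factors of many stages and had the smallest median change of the 7 classes, -0.88, with 11 of 13 lower, 1 higher and 1 not called. Those of the U4/U6 particle, Prpf3, Prpf4 and Prpf31, had a median of -1.32. Prpf3 (chr3:95830124-95855885) fell from 141, 146 and 136 CPM to 53.8, 53.8 and 59.6 CPM (log2 fold change -1.35 ± 0.062, SE; edgeR adjusted p = 3.82e-17). Prpf4 fell from 61.8, 64.1 and 58.9 CPM to 24.8, 23.9 and 25.5 CPM (log2 fold change -1.32 ± 0.079, SE; edgeR adjusted p = 1.12e-14). Both sets of groups stood well apart. Prpf31, mutated in an inherited form of retinal degeneration, was 2.14-fold lower. The U5 genes changed less. Prpf8, the large protein at the heart of the catalytic centre, went from 514 ± 6.89 to 316 ± 3.41 CPM (SD, n = 3 each; 1.63-fold lower). Prpf6, which bridges U5 and U4/U6, was at 158, 157 and 154 CPM and then at 157, 144 and 144 CPM. These groups overlapped, and the difference of -0.08 ± 0.054 on the log2 scale (SE) was not called (edgeR adjusted p = 0.205). With upper quartile factors or library totals as the scaling its sign turned, to 0.027 and 0.0504, and without dexamethasone replicate 1 it was called lower (edgeR adjusted p = 0.0458).

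Prpf19, the ubiquitin ligase at the core of the activating complex that bears its name, was 2.19-fold lower. Prpf38a and Prpf38b, which join before activation, were lower by similar amounts. Prpf38a went from 56.7, 58.8 and 54.1 CPM to 27.8, 29.2 and 28.1 CPM (log2 fold change -0.99 ± 0.078, SE; edgeR adjusted p = 4.06e-12). Prpf38b went from 172, 195 and 192 CPM to 103, 95.4 and 97.2 CPM (log2 fold change -0.92 ± 0.059, SE; edgeR adjusted p = 5.8e-14). Neither gene's groups overlapped, but their ratio did. Prpf4b, a kinase that phosphorylates other splicing factors, was 1.84-fold lower, and Prpf39, a U1-associated protein, 1.81-fold lower. Prpf18, which acts in the second catalytic step, was at 58.5, 62.8 and 64.6 CPM against 57.1, 51.9 and 55.7 CPM. Its groups nearly touched. It was called at an edgeR adjusted p of 0.0246 (log2 fold change -0.18 ± 0.070, SE), but the call was lost under 9 of the alternative settings, DESeq2 among them (adjusted p = 0.0608). Leaving out undifferentiated replicate 2 or 3 or dexamethasone replicate 2 gave edgeR adjusted p of 0.0768, 0.0879 and 0.144.

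Prpf40b, a relative of a yeast U1 protein that helps to bridge the ends of an intron, was the only PRPF gene called higher. Prpf40b (chr15:99295087-99317018), whose promoter is printed above, rose from 32.4, 34.7 and 29.9 CPM to 56.5, 60.3 and 68.8 CPM (log2 fold change 0.92 ± 0.084, SE; 1.90-fold, edgeR adjusted p = 1.09e-10). Every dexamethasone library was above every undifferentiated one.

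SR proteins carry stretches rich in arginine and serine and mostly favour the use of exons they bind. Of 10 tested SR genes 9 were lower, with a class median of -1.39. Srsf2 (chr11:116849901-116853094), which encodes SC35, fell from 667, 665 and 625 CPM to 139, 141 and 149 CPM (log2 fold change -2.19 ± 0.052, SE; 4.57-fold, edgeR adjusted p = 1.49e-23). Srsf7 (chr17:80200080-80207307), which has a zinc knuckle and also takes part in mRNA export, fell from 354, 359 and 353 CPM to 90.5, 91.8 and 94.7 CPM (log2 fold change -1.95 ± 0.052, SE; edgeR adjusted p = 2e-22). Its close relative Srsf3, the smallest SR protein, fell from 533, 538 and 553 CPM to 168, 166 and 168 CPM (log2 fold change -1.70 ± 0.049, SE; edgeR adjusted p = 1.08e-21). Libraries of a group lay close together for all 3 genes.

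Srsf9, a relative of Srsf1, fell from 183, 182 and 181 CPM to 56.9, 63.4 and 61.2 CPM (log2 fold change -1.59 ± 0.058, SE; edgeR adjusted p = 2.44e-19). Srsf10, which acts as a repressor when dephosphorylated, fell from 186, 209 and 207 CPM to 73.3, 70.6 and 79.1 CPM (log2 fold change -1.44 ± 0.061, SE; edgeR adjusted p = 5.77e-18). Groups of both genes were well apart. Srsf6 fell from 499, 523 and 507 CPM to 198, 191 and 211 CPM (log2 fold change -1.35 ± 0.051, SE; edgeR adjusted p = 4.96e-19). Srsf4, a relative of Srsf6, fell less, from 226, 221 and 227 CPM to 120, 112 and 117 CPM (log2 fold change -0.95 ± 0.052, SE; edgeR adjusted p = 2.16e-15), again with no overlap. Srsf11, which is found with U1 and U2AF, was 1.84-fold lower. The least changed SR gene called lower was Srsf5, at 286, 312 and 314 CPM against 219, 210 and 213 CPM (log2 fold change -0.51 ± 0.052, SE; edgeR adjusted p = 9.44e-10). Its groups did not overlap. Changes within the class thus ran from 1.42-fold to 4.57-fold lower.

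Srsf12, a relative of Srsf10 that acts as a splicing repressor, was the exception. It had 0, 2 and 1 reads in the undifferentiated libraries and 34, 34 and 13 reads in the dexamethasone libraries. Scaled to depth, the 81 reads against 3 gave a ratio of 22.8 (95% exact binomial interval 7.54 to 113, counting error only), and the edgeR adjusted p was 5.02e-08. Even so its dexamethasone level was low, at 3.76, 3.71 and 1.94 CPM. Per kilobase of exon it stood at 0.996 CPM, against 10.6 CPM for Srsf10. Srsf12 had enough reads to be tested only through the dexamethasone libraries, where it was high. Its call and adjusted p are therefore not separate support for a rise.

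Srsf1 (chr11:88047373-88053755), the founding SR protein, had 9, 5 and 10 reads in undifferentiated libraries and 4, 6 and 2 in dexamethasone libraries, and was not tested. The next 3 protein-coding genes along the chromosome, Vezf1, Cuedc1 and Mrps23, had 17, 28 and 10 reads in all. Dynll2 on the near side had 11436 reads and Msi2 on the far side 4947. A run of adjacent genes was therefore nearly empty in every library, and the count of Srsf1 says little about its level. Why the run was empty was not tested.

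hnRNP proteins coat new transcripts and often repress the exons they bind. Of 20 hnRNP genes 19 were lower and 1 was not called, with a class median of -1.24. Hnrnpa2b1 (chr6:51460932-51469894), whose products repress exons and sort RNAs in neurons, fell from 2246, 2319 and 2381 CPM to 723, 638 and 646 CPM (log2 fold change -1.79 ± 0.052, SE; 3.46-fold, edgeR adjusted p = 1.29e-21). Its partner in many of these functions, Hnrnpa1, fell from 835, 866 and 860 CPM to 331, 296 and 298 CPM (log2 fold change -1.47 ± 0.051, SE; edgeR adjusted p = 7.54e-20). Neither gene's groups overlapped. Hnrnpa1 shared 27.0% of its stretches with genes elsewhere, processed pseudogenes among them, and Hnrnpf, Hnrnpa3 and Hnrnpk shared 39.0%, 26.1% and 11.7%.

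Hnrnpd, which encodes AUF1, a factor that binds AU-rich elements, fell from 533, 554 and 562 CPM to 194, 180 and 186 CPM. Hnrnpdl, its relative close by on chromosome 5, fell from 389, 421 and 424 CPM to 135, 130 and 139 CPM. The falls were 2.95-fold and 3.07-fold (log2 fold change -1.56 ± 0.050 and -1.62 ± 0.053, SE; edgeR adjusted p = 1.35e-20 and 2.25e-20), and the ratio of the pair overlapped between groups. Hnrnpm was 2.98-fold lower. Hnrnpll, known for its role in the exons of CD45 in T cells, fell from 212, 223 and 237 CPM to 79.1, 77.2 and 78.5 CPM (log2 fold change -1.52 ± 0.057, SE; edgeR adjusted p = 3.85e-19). Its relative Hnrnpl fell from 554, 532 and 550 CPM to 242, 239 and 239 CPM (log2 fold change -1.18 ± 0.048, SE; edgeR adjusted p = 2.18e-18), and neither gene's groups overlapped. Hnrnpa3 was 2.48-fold lower and Hnrnpf 2.10-fold lower. Hnrnpa0 was 1.99-fold lower and Hnrnpr and Hnrnph3 were each 1.77-fold lower. Hnrnpab, the most abundant of the 81 per kilobase of exon in both groups (963 and 394 CPM per kilobase), fell 2.45-fold, from 2680 ± 33.8 to 1096 ± 33.0 CPM (SD, n = 3 each). Hnrnpc, which binds runs of uridine and guards against the use of cryptic exons, was 1.71-fold lower. Hnrnpk, which binds runs of cytidine, was 1.599-fold lower.

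Among hnRNP genes the paralogs Hnrnph1 and Hnrnph2 parted. Hnrnph1, which binds runs of guanosine, fell from 944, 1009 and 969 CPM to 362, 372 and 348 CPM (log2 fold change -1.43 ± 0.049, SE; edgeR adjusted p = 4.41e-20). Hnrnph2 (chrX:134601179-134607060) was at 36.6, 33.0 and 37.5 CPM and then at 35.9, 26.9 and 30.8 CPM, and the groups overlapped. The difference of -0.19 ± 0.097 on the log2 scale (SE) was not called (edgeR adjusted p = 0.077). Without undifferentiated replicate 2 or without dexamethasone replicate 1 it was called lower (edgeR adjusted p = 0.0446 and 0.00497), and likewise when only protein-coding genes were fitted (0.0492). The log2 ratio of Hnrnph1 to Hnrnph2 in reads per kilobase was 4.27, 4.51 and 4.27 in undifferentiated cells and 2.92, 3.36 and 3.08 in dexamethasone cells.

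Hnrnpul2 changed little as well, from 300, 322 and 328 CPM to 288, 261 and 266 CPM. The groups did not overlap, and the difference of -0.22 ± 0.053 on the log2 scale (SE) was called (edgeR adjusted p = 0.000412), though not with library totals as the scaling (edgeR adjusted p = 0.0843). Its relative Hnrnpul1 fell from 236, 246 and 251 CPM to 137, 137 and 133 CPM, with the groups well apart (log2 fold change -0.85 ± 0.052, SE; edgeR adjusted p = 1.69e-14).

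Hnrnpu (chr1:178321108-178337797), which binds chromatin-associated RNA as scaffold attachment factor A, had the least even libraries of the class. It was at 35.9, 15.04 and 8.93 CPM in undifferentiated cells and at 3.43, 5.01 and 3.87 CPM in dexamethasone cells. The groups did not overlap (log2 fold change -2.28 ± 0.324, SE; edgeR adjusted p = 3.86e-07), but the undifferentiated libraries were far more uneven than those of any other tested hnRNP gene. Without undifferentiated replicate 1 the log2 fold change of Hnrnpu was -1.56 (edgeR adjusted p = 1.23e-06). Its neighbours Cox20 and Desi2 had 2 and 5 reads in all, and Adss, further out on the same side, had 8700. Efcab2 on the other side had 666. As with Srsf1, the locus was thinly counted, and why was not tested. Without Hnrnpu and Srsf12, 72 of 77 tested genes were lower, with the same median of -1.18.

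**Figure D4:**
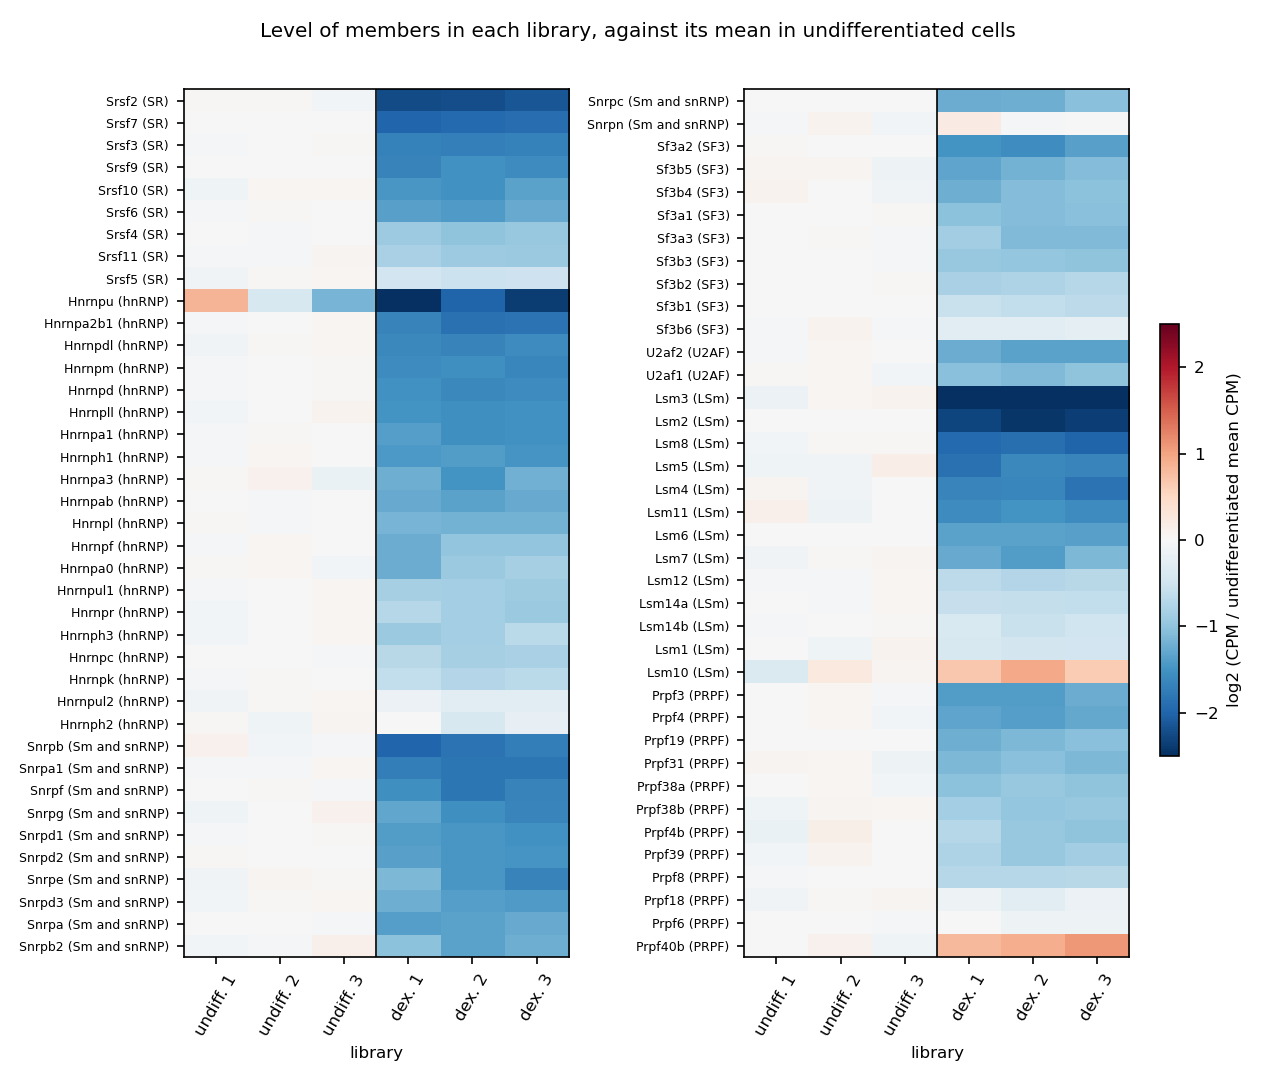
Level of splicing genes in each of the 6 libraries, as the log2 of its CPM over its mean in undifferentiated cells (blue lower, red higher; Srsf12, Srsf1 and U2af1l4 are not drawn for want of reads, and the colour scale ends at 2.5 on either side). The 3 dexamethasone columns are blue for most genes, Lsm10 and Prpf40b are red, and Hnrnpu is uneven among undifferentiated libraries.

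Ratios within a library ask whether related genes moved alike, since depth and scaling cancel. Of 16 pairs chosen by relationship, 14 could be compared, and in 10 the groups did not overlap. The share among unrelated pairs was not computed, so this count alone does not set paralogs apart from other pairs. Single genes separated often too: 38.9% of all tested genes fell and 41.0% rose without overlap. With 3 libraries against 3 the exact two-sided permutation test cannot go below p = 0.1, which these 10 pairs reached (0.14 after Benjamini-Hochberg adjustment over 14 pairs). Among the pairs reported, the largest shifts on well-counted genes were Snrpb to Snrpn, 3.75-fold, Lsm1 to Lsm8, 2.83-fold, and Hnrnph1 to Hnrnph2, 2.35-fold. Hnrnpul1 to Hnrnpul2 shifted 1.55-fold. Smaller shifts without overlap were those of Srsf4 to Srsf6 (1.32-fold), Hnrnpl to Hnrnpll (1.26-fold), Hnrnpa1 to Hnrnpa2b1 (1.2496-fold) and Srsf3 to Srsf7 (1.19-fold), in each case towards the first gene in dexamethasone cells. The ratio of Srsf10 to Srsf12 rests on the 3 undifferentiated reads of Srsf12, so no fold is given. Snrpa to Snrpb2, Lsm14a to Lsm14b, Prpf38a to Prpf38b and Hnrnpd to Hnrnpdl overlapped, with differences between -0.13 and 0.05 on the log2 scale.

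**Figure D5:**
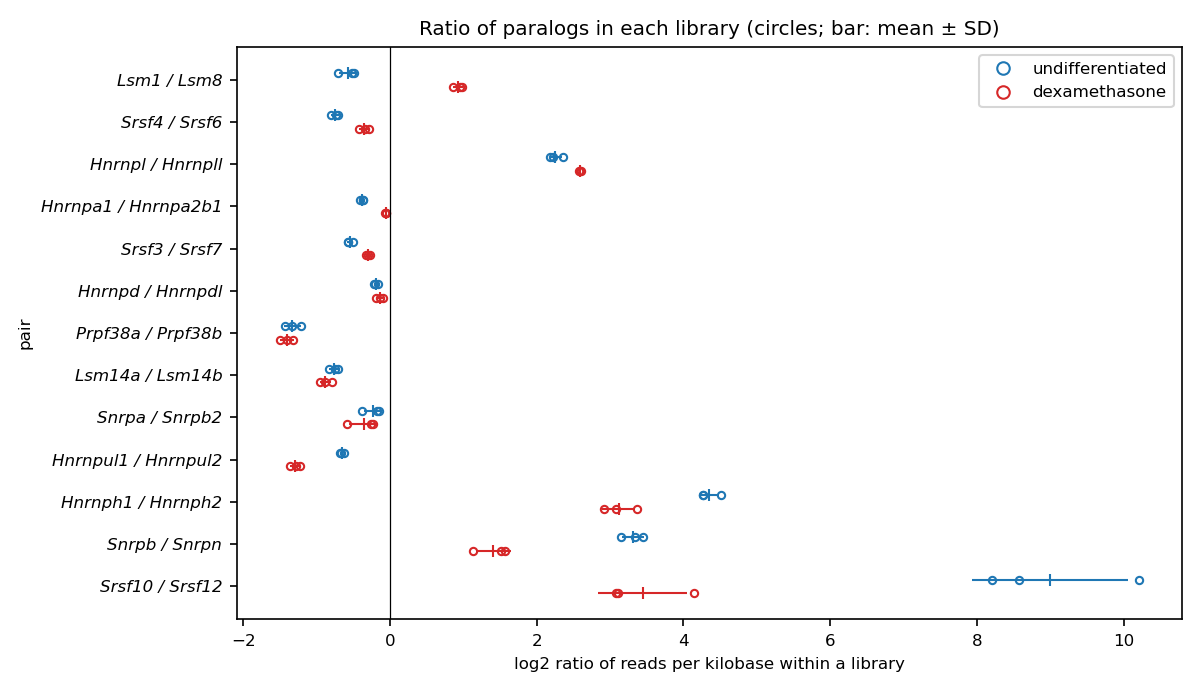
Log2 ratio of reads per kilobase of the first gene to the second in each library (horizontal axis) for the compared pairs that are reported; circles are libraries, ticks and bars their mean ± SD over 3. The Lsm1 to Lsm8 ratio crosses 0 between groups, and the ratio of Snrpb to Snrpn moves towards 0 in dexamethasone cells.

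Across 78 of the tested genes, all but Srsf12, those with higher levels per kilobase in undifferentiated cells tended to fall somewhat further (Pearson r -0.31, Spearman rho -0.35 between the log2 of that level and the log2 fold change). This is a description across genes of the same 6 libraries, which are not independent, and the undifferentiated values enter both quantities.

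Splicing genes with other symbols were lower too, in lists chosen by function. Beside every list below stand the shares of all tested genes, 38.6% called lower and 40.3% called higher. At a mean of at least 50 CPM, 51.6% of tested genes were lower. Of 13 other hnRNP genes all 13 were lower, with a median log2 fold change of -0.92. Rbmx, a regulator that also joins in sister chromatid cohesion, was 7.26-fold lower (85.9 ± 5.30 to 11.9 ± 0.391 CPM, SD, n = 3 each), and Ptbp1, the repressor of neuronal exons in cells that are not neurons, was 2.76-fold lower (853 ± 27.2 to 310 ± 13.6 CPM). All 8 exon junction genes were lower (median -1.14), among them Rbm8a, at 2.55-fold, and Eif4a3, at 2.29-fold. Of 15 tested genes for the assembly of snRNPs, 13 were lower and 1, Snupn, the import adaptor of snRNPs, was 1.49-fold higher (median of the list -0.89). Sart3, a recycling factor of U6, was 2.80-fold lower and Gemin5, which recognises small nuclear RNAs for the SMN complex, 2.37-fold lower.

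Of 6 tested genes with Snrnp symbols 5 were lower (median -0.86), among them Snrnp70, the U1-70K protein, at 1.84-fold, and Snrnp25, of the minor spliceosome, at 3.03-fold. Genes of the catalytic steps changed less: of 28 tested, 22 were lower and 2 higher (median -0.66). Eftud2, the GTPase of U5, was 3.00-fold lower and the helicase gene Ddx46 2.70-fold lower, while Slu7 and Cdc40, which both act in the second step, were 1.32-fold and 1.30-fold higher. Of 17 tested kinases and regulators of SR proteins 14 were lower and 1 higher (median -0.59). Luc7l3 was 2.26-fold and Tra2b 2.44-fold lower, and the SR protein kinase gene Srpk2 was 1.61-fold higher, next to a 1.22-fold fall of Srpk1. Some genes of these lists were at or near 0 reads in all libraries, with 0 for Dyrk1a, 5 for Gemin4, 27 for Snrnp40 and 56 for Usp39.

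Marker genes gave the state of the cells. Of 12 genes that mark catecholaminergic cells 11 were tested, of which 5 were higher and 5 lower, and their summed level went from between 3416 and 3490 CPM to between 11148 and 13196 CPM. Chgb carried that rise, from 1028 ± 46.7 to 10002 ± 1124 CPM (SD, n = 3 each), and the other 11 genes summed to between 2348 and 2451 CPM and then to between 1913 and 2013 CPM. Slc18a2 had 7 reads in all, Th rose from 4.601 ± 0.674 to 9.52 ± 1.05 CPM, and Dbh fell from 165 ± 3.07 to 12.5 ± 0.354 CPM (SD, n = 3 each). All 8 markers of dividing cells were lower, with a median log2 fold change of -4.55 and a summed level that went from between 3542 and 3662 CPM to between 221 and 243 CPM. Their part in the lower level of the splicing genes was not tested. Markers of other cell types were low: 6 fibroblast genes summed to between 10.1 and 13.7 CPM and then between 18.3 and 20.3 CPM, with Col3a1 at 0 reads. Glial genes stayed between 3.42 and 5.78 CPM, with Mog at 0 reads. Endothelial genes went from between 18.3 and 21.3 to between 33.3 and 35.6 CPM, nearly all from Pecam1. Pecam1 and Dcn were each above Th in both groups. Microglial and blood genes were at or under 0.565 CPM, with Ptprc, Hbb-bs and Cx3cr1 at 0 reads.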

How the data were processed

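The authors deposited raw counts, with 1 file per library. Per the file headers, these came from featureCounts 1.6.4, which summed exon reads by gene (Ensembl release 96; strand setting 1), with no option for reads that map to several places or overlap several genes. Per the submitters' processing notes, the build was GRCm38.p6 and the tools HISAT2 2.2.0, Subread 1.6.4, Trim Galore 0.6.4, FastQC 0.11.9 and DESeq2. Per the labels' protocols, libraries came from total RNA by mRNA selection and were read to 75 bases.

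All 55536 genes matched GENCODE M21 with the same start and end. Genes were kept by filterByExpr (minimum count 10, minimum total 15), which left 12664 genes with 99.8% of reads. They were tested with edgeR 4.0.16 (R 4.3.3; TMM factors, glmQLFit and glmQLFTest, group as the only term), and every adjusted p in the text is from that fit unless another tool is named. CPM means and SDs use TMM-scaled libraries, so changes are relative to the counted mRNA. The SE of a log2 fold change is its size over the square root of F. Pair ratios used reads per kilobase with 0.5 reads added. The fit was also run on simulated counts in which few genes changed. That run does not check the scaling under a change as broad as in these data. No 2 libraries of a group were copies: their chi-square over genes was 1.65 to 3.19 per degree of freedom. The replicate numbers were taken as not pairing the samples, since same-numbered libraries correlated at -0.09, 0.04 and -0.07 in their deviations from group means. Intervals cover counting error only.

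Members, classes, lists and pairs were chosen with earlier results of these data known. The values of 1 member and 1 pair are not reported here, though they enter the counts, medians and shares. All other members may be named, with full statistics for the largest changes of a class, exceptions and paralog pairs, and up to 2 examples a list by the smallest adjusted p. Snupn, Slu7, Cdc40, Srpk1, Srpk2, the neighbours of Srsf1 and Hnrnpu, genes listed near 0 and the named markers, Chgb among them, were chosen after their values were seen. Stretches of 75 bases shared with transcripts of other genes were counted as a measure of near-identical copies. Alternatives were other scalings, filters, tools and thresholds, each library left out, the replicate block, protein-coding genes alone, and leaving out members with shared stretches.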

Additional observations from a re-analysis of the deposited data

How the results depend on the processing

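Across the alternatives run, between 57 and 75 members were called lower and 2 or 3 higher, and 332 of 335 alternative counts were within 1.5 times the reported count. The test against a fold of 1.5 gave the other 3: it left 0 LSm genes higher in place of 1, and 0 other splicing genes higher and 48 lower in place of 4 and 75. Of 1422 values of single genes, 1397 kept their direction and call, and 67 of 79 genes did so under every alternative run. The sign turned for Snrpn without dexamethasone replicate 1 (-0.028) and for Prpf6 with upper quartile factors (0.027) and library totals (0.0504), none of them called; the cause was not tested. The median of all tested genes moved from 0.02 with TMM factors to 0.12 with upper quartile factors and 0.14 with library totals, so falls are about 0.1 smaller on those scales. With those scalings 5692 and 5802 genes were called higher and 4334 and 4207 lower, in place of 5106 and 4891. With the replicate block, 73 members were lower and 3 higher, as without it, and 5017 genes were called higher and 4803 lower in all; the block changed no class count. Leaving out members with over 10% of their 75-base stretches in other genes left 57 of 61 tested members lower (93.4%) and 3 higher. This was the lowest count because fewer members were counted. With that limit applied to genes at another place alone, chosen after seeing the data, 64 were lower and 3 higher. Few reads limit Srsf1, U2af1l4 and Srsf12, and with 3 libraries a group no pair ratio can pass the exact test.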
